A study of Homo sapiens with 16 samples.

Results

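Keratins are the intermediate filament proteins of epithelial cells, hair and nail, and 54 human keratin genes were followed through 8 lists of histone mark peaks from a multiple myeloma line. The genes were taken as a named list of the type I and type II keratins. That list was chosen with earlier results of these data known. Its members are 54 of the 19970 protein-coding genes that RefSeq places on chromosomes 1 to 22 and X of GRCh38.p14. The 27 genes on chromosome 12 span chr12:52168996-52952906, a stretch of 783.9 kb that holds all 26 type II genes and the type I gene KRT18. The other 27, all type I, span chr17:40697991-41624575, a stretch of 926.6 kb in which a block of keratin-associated protein genes lies between KRT40 and KRT33A.

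The study profiled trimethylated lysine 27 (H3K27me3) and trimethylated lysine 4 (H3K4me3) of histone H3 by ChIPmentation, in which chromatin is immunoprecipitated and then cut and tagged by a transposase. All cells were TKO, a derivative of the human myeloma line KMS-11 labelled as a plasma cell of genotype KMS-11 WHSC1(+/-), WHSC1 being an older symbol of the histone methyltransferase NSD2. They were compared as plain TKO, for which the labels name no introduced form, and as TKO expressing wild type NSD2 (WT) or the substitutions D1240A or F1295A, with no treatment. Each of the 4 groups had 4 samples, 2 for H3K27me3 and 1 each for H3K4me3 and IgG, or 16 in all, and IgG was not analysed here. The comparison asks how mutant NSD2 may alter chromatin marks, and everything here describes 1 derivative of 1 line.

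Both H3K27me3 samples of a group stand in 1 deposited list, so there was 1 list for each mark and group. No replicate spread and no test was available for any difference below. In H3K27me3 peaks TKO had 5881, WT 3790, D1240A 2188 and F1295A 2083, and read depth is unknown. A difference between groups at a gene can therefore not be told apart from a difference in how much was called. Of 10 plasma cell markers, H3K4me3 marked 6 in TKO and 8 in WT, against 7 in D1240A and 8 in F1295A, where it marked 39.9%, 43.6%, 41.6% and 44.5% of all genes. IRF4, PRDM1, XBP1, TNFRSF17, MZB1 and JCHAIN carried it in every group. Of the same markers, SDC1 carried H3K27me3 in all 4 groups, with H3K4me3 also in WT and F1295A, and SLAMF7 carried H3K27me3 in TKO. H3K4me3 marked none of 8 epithelial markers, which include EPCAM, CDH1 and TP63, in any group. It also marked none of the 3 T cell, 3 myeloid and 4 stromal markers, and 1, 1, 1 and 2 of 7 B cell markers in that order of groups.

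Type I keratins are acidic and type II keratins are neutral to basic, and a filament needs 1 chain of each kind. The pairs differ by tissue: KRT8 with KRT18 in simple epithelia, KRT5 with KRT14 in the basal layer of the epidermis, KRT1 with KRT10 above it, KRT4 with KRT13 in mucosa, KRT3 with KRT12 in cornea, and separate sets in the hair shaft and its sheaths. Plasma cells are not epithelial. H3K27me3 is laid down by Polycomb repressive complex 2 and is found over silent developmental genes, whereas H3K4me3 lies at the starts of active or poised genes, and NSD2 itself methylates lysine 36 of histone H3.

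Promoters of 6 keratin genes are printed as examples of marked and unmarked starts, and they are not typical of either. Each runs from 250 bases before to 50 bases after the gene's start as RefSeq GRCh38.p14 gives it, 5′ to 3′ on the minus strand, with every CpG pair in capitals. KRT79, KRT85 and KRT71 carried H3K27me3 in all 4 groups and lay at chr12:52834262-52834561, chr12:52367432-52367731 and chr12:52553096-52553395. KRT9, at chr17:41572010-41572309, carried it in TKO and WT. KRT5, at chr12:52520345-52520644, and KRT10, at chr17:40822565-40822864, carried it in no group.
KRT79: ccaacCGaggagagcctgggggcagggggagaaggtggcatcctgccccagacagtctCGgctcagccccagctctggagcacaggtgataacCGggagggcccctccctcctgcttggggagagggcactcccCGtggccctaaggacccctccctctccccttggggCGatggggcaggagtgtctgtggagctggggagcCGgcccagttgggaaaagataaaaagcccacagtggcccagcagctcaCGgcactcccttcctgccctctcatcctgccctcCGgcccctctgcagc
KRT85: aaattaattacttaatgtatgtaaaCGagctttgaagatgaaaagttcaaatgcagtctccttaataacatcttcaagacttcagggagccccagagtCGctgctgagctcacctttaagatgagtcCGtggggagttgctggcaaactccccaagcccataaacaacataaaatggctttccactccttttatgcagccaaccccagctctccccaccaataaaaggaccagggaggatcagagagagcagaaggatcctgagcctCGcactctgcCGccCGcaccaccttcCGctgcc
KRT71: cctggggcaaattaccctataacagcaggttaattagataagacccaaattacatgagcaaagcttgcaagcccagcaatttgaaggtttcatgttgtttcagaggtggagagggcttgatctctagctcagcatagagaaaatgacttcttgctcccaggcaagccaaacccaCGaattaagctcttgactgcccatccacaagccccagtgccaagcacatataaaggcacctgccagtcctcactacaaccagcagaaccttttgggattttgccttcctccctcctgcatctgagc
KRT9: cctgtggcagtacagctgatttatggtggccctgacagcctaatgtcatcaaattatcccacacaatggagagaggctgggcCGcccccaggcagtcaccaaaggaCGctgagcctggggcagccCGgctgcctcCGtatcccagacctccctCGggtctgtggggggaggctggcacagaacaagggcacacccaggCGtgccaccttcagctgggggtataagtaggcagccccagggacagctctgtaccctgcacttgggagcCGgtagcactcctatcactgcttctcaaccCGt
KRT5: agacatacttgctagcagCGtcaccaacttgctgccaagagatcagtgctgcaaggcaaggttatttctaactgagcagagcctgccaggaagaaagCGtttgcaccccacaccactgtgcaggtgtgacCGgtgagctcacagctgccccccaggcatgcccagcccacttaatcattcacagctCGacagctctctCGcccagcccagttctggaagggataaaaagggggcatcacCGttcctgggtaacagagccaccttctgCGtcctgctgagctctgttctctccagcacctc
KRT10: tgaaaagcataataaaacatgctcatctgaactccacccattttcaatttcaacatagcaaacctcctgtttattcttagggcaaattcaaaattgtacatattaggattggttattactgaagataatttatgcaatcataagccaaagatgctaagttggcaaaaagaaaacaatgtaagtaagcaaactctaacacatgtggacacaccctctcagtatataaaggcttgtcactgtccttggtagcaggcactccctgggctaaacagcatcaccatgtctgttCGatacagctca
KRT79 and KRT9 hold 8 CpG pairs each, KRT85 and KRT5 hold 7, and KRT71 and KRT10 hold 1. KRT85 and KRT5 thus have the same number of CpG pairs with opposite H3K27me3 calls, as do KRT71 and KRT10. KRT5 and KRT71 are exceptions, however. KRT5 has the most pairs of the 23 keratins with a promoter that were marked in no group, whose median is 2. KRT71 has the fewest of the 3 marked in all 4 groups, whose median is 7.

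No keratin gene carried H3K4me3. A gene was called marked where a peak reached within 1 kb of either end of its RefSeq record, and 0 of 54 keratin genes met this for H3K4me3 in any of the 4 groups. The same rule called 39.9% of all protein-coding genes in TKO and 43.6% in WT, and 41.6% and 44.5% in D1240A and F1295A. No H3K4me3 peak lay within 10 kb of an end of any of the 54 keratin genes, and 0 bases of either cluster were covered in any group. The nearest H3K4me3 peaks stood outside the clusters, at genes of general cell function. Below the chromosome 12 cluster the nearest lay 96.7 to 97.3 kb away over ATG101, an autophagy factor. Above it, the nearest lay 51.9 to 52.2 kb away at EIF4B, a translation initiation factor. On chromosome 17 the nearest lay 48.4 to 48.8 kb below at SMARCE1, a chromatin remodelling subunit, and 62.9 to 63.2 kb above at EIF1, another initiation factor. Since none carried H3K4me3, no keratin gene could carry both marks in any group. Both marks are rare at 1 gene in any case. They met at 223, 318, 145 and 194 of all 19970 protein-coding genes in TKO, WT, D1240A and F1295A.

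H3K27me3 marked 20 of the 54 keratin genes in TKO and 20 in WT, against 10 in D1240A and 13 in F1295A. These are 37.0%, 37.0%, 18.5% and 24.1% of the family, beside 10.0%, 9.57%, 5.36% and 5.79% of all protein-coding genes in the same lists. In every group the share was above the background of its own list, and in D1240A and F1295A both were lower. Neighbouring keratins share peaks, so the genes are not independent counts. On chromosome 12 the marked genes numbered 15, 14, 8 and 10 of 27 in TKO, WT, D1240A and F1295A. On chromosome 17 they numbered 5, 6, 2 and 3 of 27, or 18.5%, 22.2%, 7.41% and 11.1%. The lower ends of their 95% binomial intervals were 6.3%, 8.62%, 0.91% and 2.35%, all below the background of the same list. For chromosome 12 the lower ends were 35.3%, 31.9%, 13.8% and 19.4%, all above it. The chromosome 17 share could thus not be told apart from background, and the excess of the family rested on chromosome 12. These intervals take genes as independent, which they are not. Cut to the 2083 strongest H3K27me3 peaks of each list by total signal, the family counts were 13 in TKO and 16 in WT, and 10 in D1240A and 13 in F1295A, so the gap between TKO and F1295A was no longer there.

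Over whole clusters, H3K27me3 peaks covered 28.7% of the chromosome 12 cluster in TKO and 29.8% in WT, against 13.5% in D1240A and 25.5% in F1295A, in 16, 15, 6 and 9 peaks. The whole of chromosome 12, from its first to its last coding record, was covered to 1.78%, 1.53%, 0.919% and 1.13%. The 250 kb below the cluster were covered to 18.3%, 14.5%, 3.56% and 4.04%, and the 250 kb above it to 7.31%, 5.71%, 2.69% and 0%. The chromosome 12 keratins thus stood above both flanks and above their chromosome in all 4 lists. The median over the cluster's peaks of the mean signal per base, in the units of the authors' peak caller, was 18.3 in TKO and 20.7 in WT, against 32.4 in D1240A and 32.2 in F1295A. The same median over all peaks of each list was 21.4, 24.0, 43.7 and 39.7.

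**Figure D1:**
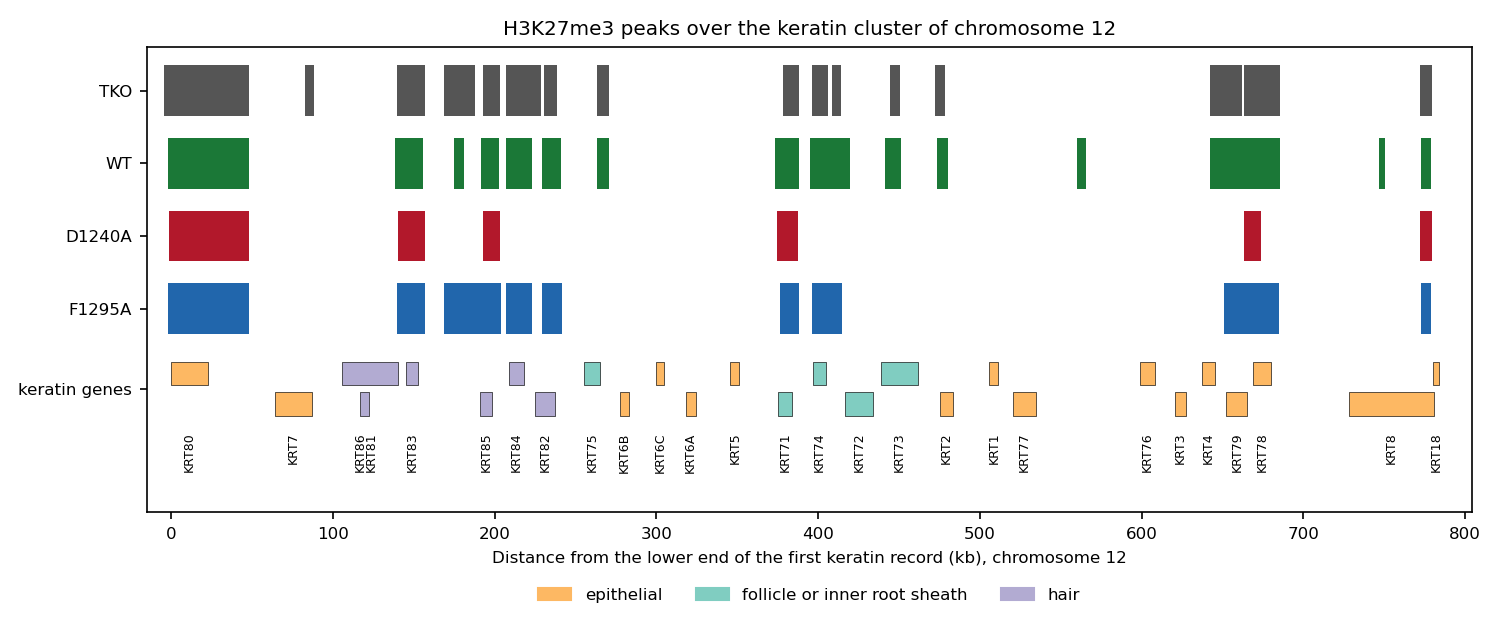
H3K27me3 peaks of the 4 groups of TKO cells (filled blocks, one row per group) over the keratin cluster of chromosome 12, with keratin gene records below coloured by role. The horizontal axis is the distance in kb from the lower end of the KRT80 record. TKO has 16 peaks in the cluster, WT 15, D1240A 6 and F1295A 9, and the stretch from KRT6B to KRT5 holds none in any group.

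The chromosome 17 cluster was covered to 9.83% in TKO and 9.89% in WT, and 1.64% in D1240A and 3.44% in F1295A, in 8, 7, 1 and 2 peaks. Chromosome 17 as a whole was covered to 6.40%, 6.54%, 3.57% and 4.28%, so that the cluster lay above its chromosome in TKO and WT and below it in D1240A and F1295A. The 250 kb below the cluster were more covered than the cluster in every group, at 21.1%, 28.7%, 13.4% and 21.5%. Most of the marked bases lay at one end. From KRT33A to KRT17 the cover was 26.3%, 24.7%, 5.45% and 11.4%, whereas from KRT24 to KRT40 it was 1.36% in TKO and 0% in the others. Between KRT40 and KRT33A, where the keratin-associated protein genes lie, it was 3.87% in TKO, 6.34% in WT and 0% in both mutants. With 2083 peaks per list, the cover of the chromosome 17 cluster in TKO was 1.62%, beside 7.11% in WT, 1.64% in D1240A and 3.44% in F1295A. With the stronger 50% of each list kept in place of equal numbers, it was 7.64% in TKO and 6.27% in WT, and 1.64% and 1.62% in D1240A and F1295A. TKO thus stood beside WT under one of these limits and beside D1240A under the other. The peaks of TKO over KRT13 and KRT14, which only equal numbers removed, stood at percentiles 58.7 and 62.6 of their list by total signal.

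**Figure D2:**
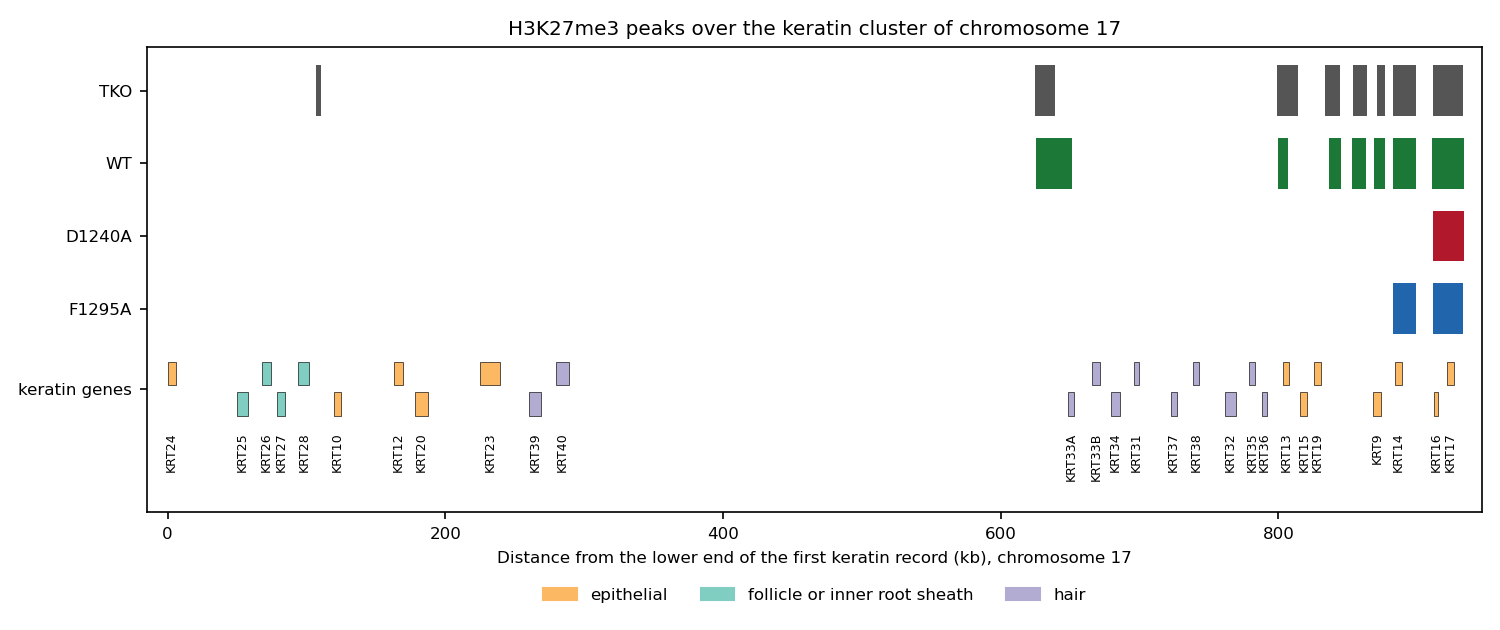
H3K27me3 peaks of the 4 groups of TKO cells (filled blocks, one row per group) over the keratin cluster of chromosome 17, with keratin gene records below coloured by role. The horizontal axis is the distance in kb from the lower end of the KRT24 record. All 4 groups share the peak over KRT16 and KRT17 at the right, the only one in D1240A, and the gap in the gene row between KRT40 and KRT33A holds the keratin-associated protein genes.

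**Figure D3:**
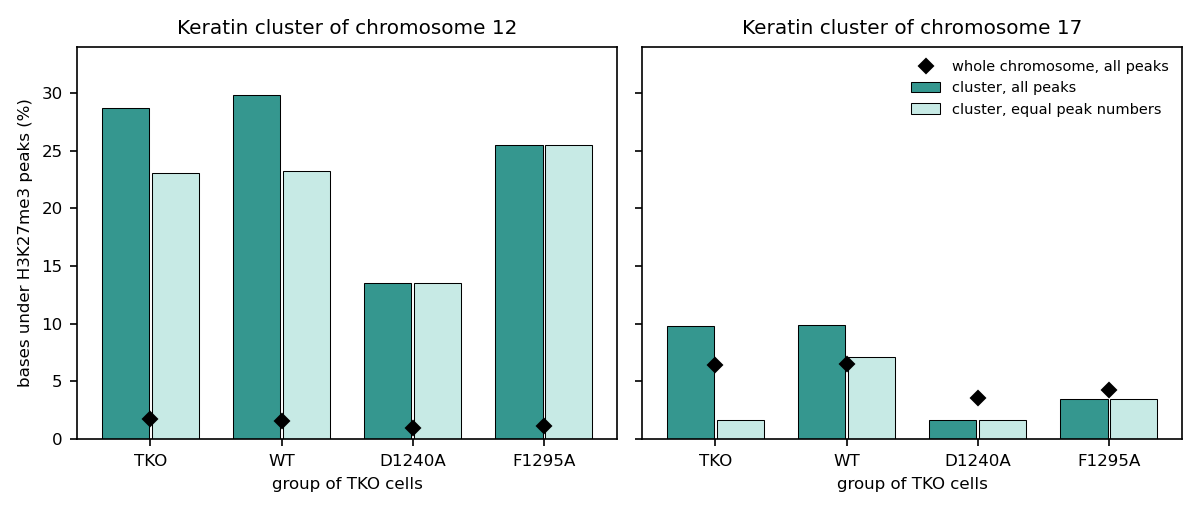
Share of each keratin cluster under H3K27me3 peaks (bars, percent of bases) with all peaks (dark) and with the 2083 strongest peaks of each list (light), and the share of the whole chromosome with all peaks (diamonds). There is 1 list per group, so no error bar is drawn. Chromosome 12 bars stand above the diamonds in every group, and the chromosome 17 bar of TKO goes from 9.83% to 1.62% at equal peak numbers.

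The type II hair keratins, which build the cortex and cuticle of the hair shaft, were the most often marked role, with 5 of 6 in TKO, WT and F1295A and 3 of 6 in D1240A. KRT83, a cortex keratin, had its whole record under a peak in every group. That peak was 17.1 kb wide in TKO, 17.3 kb in WT, 16.9 kb in D1240A and 17.1 kb in F1295A and reached the upper end of the KRT86 record, so KRT86 was marked in all groups with only 0.834%, 5.62%, 0.0753% and 0.846% of its record covered. KRT81 lies inside the KRT86 record and was unmarked throughout, its nearest peak 15.7 to 17.6 kb away. These neighbours are near-identical copies, and how reads that match several of them were placed is not given in the sources used here. KRT85, a matrix and cortex keratin, was covered to 71.5% in TKO and 93.3% in WT, against 72.6% in D1240A and 100% in F1295A. In F1295A a single peak of 35.7 kb ran across it, where TKO had peaks of 18.6 and 10.2 kb, WT peaks of 6.03 and 11.1 kb, and D1240A a single peak of 10.1 kb. KRT85 was thus marked in every group over stretches of different width.

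KRT84 and KRT82 set D1240A apart from the other 3 groups. KRT84, a hair and tongue keratin, had 100% of its record covered in TKO, WT and F1295A and 0% in D1240A, where the nearest peak was 5.68 kb from its end. KRT82, a cuticle keratin, was covered to 84.0%, 62.9% and 62.5% in TKO, WT and F1295A and to 0% in D1240A, with the nearest peak 21.8 kb away. Over KRT84 the peaks of TKO, WT and F1295A started within chr12:52375765-52375837. In F1295A their mean signal was 37.9 over KRT84 and 47.0 over KRT82, beside a median of 39.7 for all peaks of that list. In WT the corresponding values were 14.1 and 15.5 beside a median of 24.0, and in TKO 13.3 and 12.1 beside 21.4. The call of KRT82 was lost from WT, but not from TKO or F1295A, when 2083 peaks were kept per list. In TKO the 7.89 kb peak over KRT82, at percentile 24.0 of its list by total signal, fell out as well. The call there rested on the 21.75 kb peak over KRT84, at percentile 70.9, which reached into the KRT82 record.

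Among the 5 type II follicle keratins, which form the inner root sheath and companion layer around the hair, TKO had 3 marked, WT 4, D1240A 1 and F1295A 2. KRT71, an inner root sheath keratin, was marked in all groups and covered to 65.5%, 100%, 100% and 81.2% in TKO, WT, D1240A and F1295A. At equal peak numbers its call was lost in TKO. KRT74, of the same sheath, was fully covered in TKO, WT and F1295A and uncovered in D1240A, whose nearest peak, that of KRT71, stood 8.97 kb away. KRT75, the companion layer keratin, was covered to 20.1% in TKO and in WT and to 0% in both mutants. KRT72 was marked in WT, where a 24.7 kb peak ran on from KRT74 over 17.7% of its record, while peaks stopped 2.20 kb short of it in TKO and 1.92 kb short in F1295A. KRT73 was called in no group, yet 27.5% of its record in TKO and 43.1% in WT lay under an internal peak that covered all 300 bases of the promoter RefSeq gives for it. The rule of 1 kb from a record end thus missed the start of KRT73.

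Of the 15 type II epithelial keratins, 6 were marked in TKO, 5 in WT and 3 in each mutant. KRT80, a keratin of many epithelia, had its whole record under the widest peak of the chromosome 12 cluster in every group, 52.3 kb in TKO, 49.95 kb in WT, 49.7 kb in D1240A and 49.9 kb in F1295A. The upper ends of these 4 peaks lay within 73 bp of each other, the lower ends within 2673 bp, and the peaks also covered the noncoding records LINC02874 and LINC00592. By total signal they stood at percentiles 95.8, 93.4, 86.3 and 85.9 of their own lists. All 4 groups shared 49.6 kb of this domain, and KRT80 did not set any group apart.

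KRT79 and KRT78, which lie side by side, were marked in all groups but over different widths. KRT79, known from sebaceous ducts, was covered to 88.1% in TKO and 100% in WT, and 14.9% in D1240A and 100% in F1295A. KRT78 was covered to 100%, 100%, 44.6% and 100%. The peak of WT there was 43.6 kb wide and reached KRT4, a mucosal keratin, which was covered to 41.5% in WT, to 38% in TKO and to 0% in D1240A and F1295A. F1295A kept a peak of 34.4 kb that stopped 5.66 kb from KRT4, and D1240A a peak of 10.4 kb that lay across the gap between KRT79 and KRT78. The D1240A peak had a mean signal of 56.6 against a list median of 43.7, so it was narrower than in the other groups and above the median signal of its list. KRT2, of the upper epidermis, was covered to 39.0% in TKO and 63.0% in WT and to 0% in both mutants, whose nearest peaks stood 87.7 and 60.9 kb away. KRT2 and KRT75 were lost in TKO and WT alike when 2083 peaks were kept.

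Among the 13 type I epithelial keratins, 6 were marked in TKO, 5 in WT and 3 in each mutant. KRT16 and KRT17, keratins of skin appendages and of injured epidermis, had their whole records covered in all 4 groups by a single peak of 21.7 kb in TKO, 22.7 kb in WT, 22 kb in D1240A and 21.5 kb in F1295A. Its starts lay within 792 bp and its ends within 457 bp of each other. Mean signal in that peak was 36 in TKO and 58.1 in WT, against 48.6 in D1240A and 49.8 in F1295A, the highest of the chromosome 17 cluster in each list. It is the single H3K27me3 peak that D1240A had in the cluster. KRT16 and KRT17 have near-identical pseudogene copies elsewhere, and KRT42P lies under the same peak.

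KRT14, the basal partner of KRT5, was fully covered in TKO, WT and F1295A and uncovered in D1240A, whose nearest peak was 22.5 kb away. The KRT14 peak ran over 16.0 kb in TKO, 16.0 kb in WT and 16.8 kb in F1295A. Its mean signal was 14.1, 23.6 and 30.3, and at equal peak numbers its call was lost in TKO. KRT13, the mucosal partner of KRT4, was covered to 100% in TKO and 83.3% in WT, and KRT9, of palms and soles, to 54.3% and 79.3%. Neither had any cover in D1240A or F1295A. At equal peak numbers KRT13 was lost in both TKO and WT, and KRT9 in TKO only.

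The simple epithelial keratins KRT7, KRT8, KRT18, KRT19 and KRT20 gave 2 calls in TKO and 1 in D1240A, and 0 in WT and in F1295A. KRT7 was marked in TKO alone, by a peak of 6.05 kb over 19.1% of its record whose mean signal was 12.9. In the other groups the nearest peak was 16.1 to 16.2 kb from KRT7. The calls of KRT18 turned on the 1 kb limit. A peak lay just below KRT18 in all groups, 418 bp away in TKO and 354 bp in D1240A, but 1189 bp in WT and 1167 bp in F1295A. That peak was 7.40 kb wide in TKO, 6.14 kb in WT, 7.41 kb in D1240A and 6.17 kb in F1295A, with mean signals of 38, 35.5, 38.8 and 37.8. It lay wholly inside the KRT8 record, 1.36 to 2.19 kb from its upper end, and KRT8 was therefore unmarked in every group with 11.7% to 18.6% of its record covered. The KRT8 and KRT18 records overlap at their ends. The upper edge of the shared peak varied by 835 bp between groups, and WT alone had a further peak of 3.68 kb within KRT8.

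**Figure D4:**
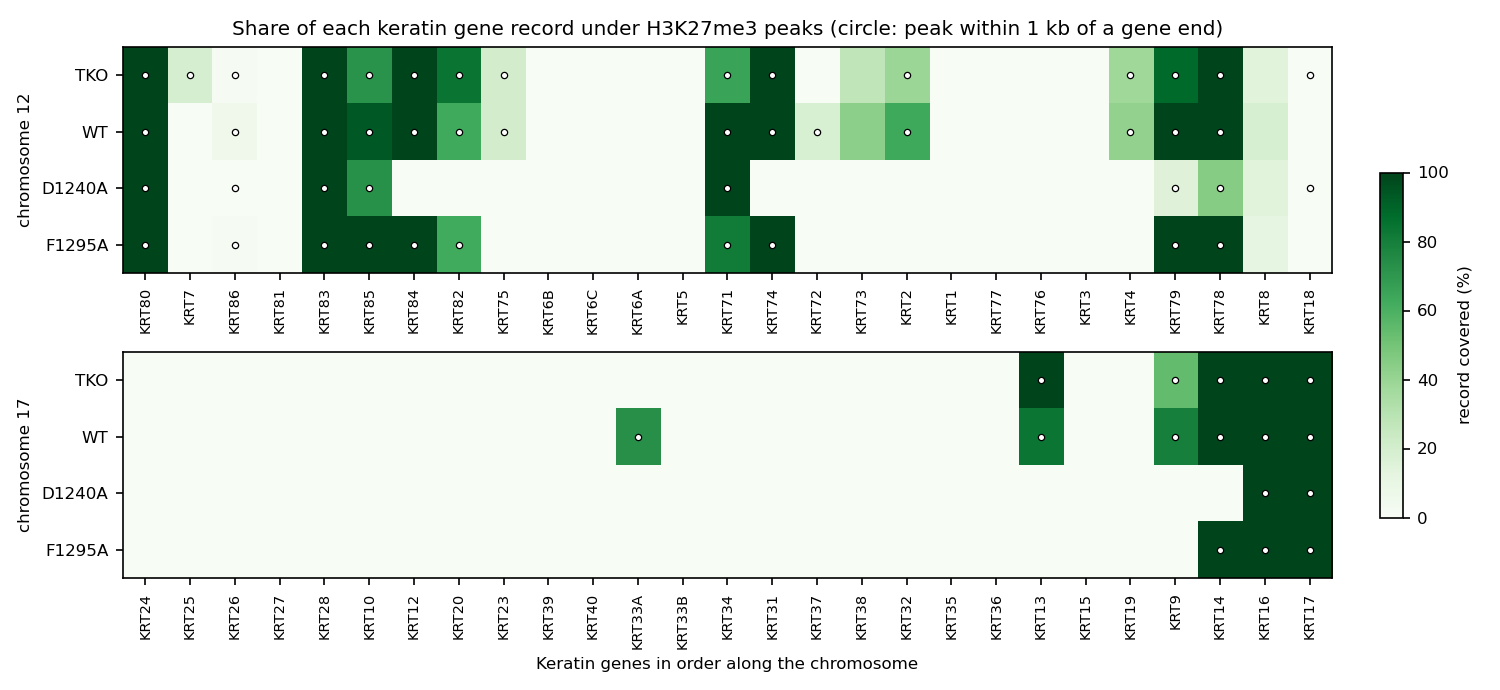
Share of each keratin gene record under H3K27me3 peaks (colour, percent), in chromosome order, for the 4 groups of TKO cells. A circle marks a peak within 1 kb of either gene end. KRT80, KRT83, KRT16 and KRT17 are fully covered in all 4 groups, KRT84, KRT74 and KRT14 in all but D1240A, and KRT24 to KRT40 in none.

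Hair and sheath keratins of type I had few calls, and so few genes cannot be told apart from the background of 10.0%, 9.57%, 5.36% and 5.79% over all genes. Of the 11 type I hair keratins 1 was marked, KRT33A in WT, where 73.2% of its record lay under a 26.2 kb peak. In TKO a 13.9 kb peak with nearly the same lower end stopped 9.28 kb short of KRT33A. None of the type I inner root sheath keratins KRT25, KRT26, KRT27 and KRT28 was marked in any group. TKO alone had a 3.93 kb peak between KRT28 and KRT10, 4.83 kb from KRT28 and 9.40 kb from KRT10. The type II hair keratins, their filament partners, were marked at 5 of 6 genes in 3 of the 4 groups.

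Of the 54 genes, 32 were marked in no group, 11 on chromosome 12 and 21 on chromosome 17. The unmarked genes formed runs. Peakless runs are not particular to keratins, as peaks are sparse on both chromosomes. TKO, the longest list, had 198 over the 133169 kb of chromosome 12 and 415 over the 83046 kb of chromosome 17. From KRT6B over KRT6C and KRT6A to KRT5, 102.9 kb held no H3K27me3 peak in any group. The same held for 79.6 kb with KRT1 and KRT77 and for 76.1 kb with KRT76 and KRT3. On chromosome 17, peakless runs were 237.6 kb with KRT24 to KRT28, 514.2 kb with KRT10, KRT12, KRT20, KRT23, KRT39, KRT40 and keratin-associated protein genes, and 147.7 kb from KRT33B to KRT36. KRT15, a basal and bulge keratin, and KRT19 were unmarked in every group, with a peak 1.62 kb from KRT15 and 3.33 kb from KRT19 in TKO. Both chains of the pairs KRT1 with KRT10 and KRT3 with KRT12 were thus unmarked, while KRT5 was unmarked beside a KRT14 marked in 3 groups. Repeated sequence can leave a run without peaks, and mappability was not tested.

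Between groups, the keratins fell into few patterns. All 4 groups shared 9 genes: KRT80, KRT86, KRT83, KRT85, KRT71, KRT79, KRT78, KRT16 and KRT17. Another 5 were marked in TKO and WT but in neither mutant, namely KRT75, KRT2, KRT4, KRT13 and KRT9. A further 4 were marked in all but D1240A, namely KRT84, KRT82, KRT74 and KRT14. KRT72 and KRT33A were marked in WT alone, KRT7 in TKO alone, and KRT18 in TKO and D1240A. Both mutants, whose lists were shorter, lacked marks that WT had, at keratins as over all genes. F1295A had 4 that D1240A lacked. Of the 15811 protein-coding genes with a RefSeq promoter, 637 were marked in all 4 groups, 187 in 3, 340 in 2, 534 in 1 and 14113 in none.

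Pair by pair, 11 keratin genes were marked in WT and not in D1240A, where 4.34% of all genes were. In WT and not in F1295A there were 7, beside 3.99%, and in TKO and not in F1295A also 7, beside 4.51%. TKO had 10 that D1240A did not, beside 4.82%. These percentages are of all 19970 genes, which were less often marked to begin with than keratins. Of the genes marked in WT, 11 of 20 keratins and 866 of all 1911 were unmarked in D1240A. In F1295A, 7 of the 20 and 797 of the 1911 were unmarked. Counted so, the keratin share was the higher for D1240A and the lower for F1295A, and neither difference was tested. WT and TKO differed by 2 genes each way, KRT72 and KRT33A in WT only (1.72% of all genes) and KRT7 and KRT18 in TKO only (2.17%). F1295A had KRT84, KRT82, KRT74 and KRT14 over D1240A, beside 1.03%, and D1240A had KRT18 alone over F1295A, beside 0.601%. In the opposite direction D1240A had no keratin gene over TKO (0.165% of all genes) and KRT18 alone over WT (0.130%). F1295A had none over TKO (0.280%) and none over WT (0.210%). TKO, WT and the mutants enter several of these pairs, so the counts are not independent. When a gene had to lie at least 10 kb from any peak in the group that lacked it, 9 of the 11 genes of WT over D1240A and 4 of the 7 of WT over F1295A remained. KRT84 and KRT74 were the pair that dropped out for D1240A, and KRT72, KRT4 and KRT9 those for F1295A.

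Base by base, the marked stretches of the mutants lay mostly inside those of WT. This nesting was not particular to keratins. Over all protein-coding genes, 26 of the 1071 marked in D1240A and 42 of the 1156 marked in F1295A were unmarked in WT. Of the 1911 marked in WT, 344 were unmarked in TKO. Of the keratin bases marked in D1240A, 96.8% on chromosome 12 and 100% on chromosome 17 were also marked in WT, whereas 43.9% and 16.6% of those marked in WT were also marked in D1240A. For F1295A, 89.7% and 97.5% of its marked bases were also marked in WT, and 76.7% and 33.9% of the bases of WT were marked in F1295A. TKO and WT shared 83.8% of the bases of WT and 87.1% of those of TKO on chromosome 12, and 82.4% and 82.9% on chromosome 17. All 4 groups together marked 99.2 kb (12.7%) of the chromosome 12 cluster and 15 kb (1.62%) of the chromosome 17 cluster, and no group marked 515.2 kb (65.7%) and 818.6 kb (88.3%). The KRT80 and KRT16 to KRT17 domains made up much of what all 4 shared, at 49.6 kb and 21.5 kb, part of each beyond the cluster end.

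Keratin promoters were poor in CpG pairs. RefSeq promoters were at hand for 34 of the 54 genes, and KRT1, KRT6A, KRT6B, KRT6C, KRT7, KRT13, KRT14, KRT15, KRT16, KRT17, KRT18, KRT19, KRT23, KRT72, KRT77, KRT78, KRT80, KRT81, KRT83 and KRT86 had none. In 300 bases the 34 held a median of 2 CpG pairs, with a range of 0 to 8, beside a median of 22 over the 15811 protein-coding genes with a promoter. The median was 2 over the 23 keratins marked in no group, 4 over the 8 marked in 1 to 3 groups and 7 over the 3 marked in all 4. These groups follow calls at either record end, not at the start. KRT73 thus counts as unmarked, though its 300 promoter bases were covered in TKO and WT. KRT2 and KRT33A count as marked with 0 promoter bases covered in any group. Over all protein-coding genes the median was 22 for those marked in no group, 17, 15 and 17 for those marked in 1, 2 and 3 groups, and 17 for those marked in all 4, so it was highest in the unmarked genes there. KRT71 and KRT5 go against the order among keratins, with 1 pair and marks in 4 groups for KRT71 and 7 pairs and no mark for KRT5. The letters TATAAA, searched on both strands, occurred in 20 of the 34 keratin promoters (58.8%) and in 9.75% of all. Those of KRT71 and KRT10 printed above hold it and those of KRT79, KRT85, KRT9 and KRT5 do not. H3K27me3 peaks that reached any of the 34 windows covered all 300 bases, at KRT85, KRT71 and KRT79 in the 4 groups, at KRT84, KRT82 and KRT74 in all but D1240A, and at KRT75, KRT73, KRT4 and KRT9 in TKO and WT.

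**Figure D5:**
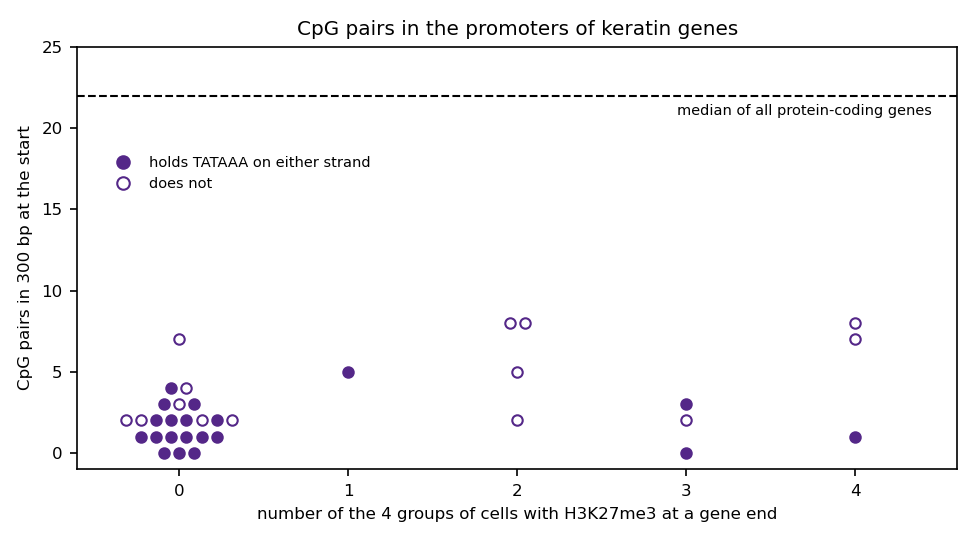
CpG pairs in the 300 bases at the start of 34 keratin genes (points, vertical axis) against the number of groups in which the gene carried H3K27me3 at an end. Filled points hold TATAAA on either strand, points are spread sideways only so that they do not overlap, and the dashed line is the median of 22 over 15811 protein-coding genes. All keratin points lie between 0 and 8, and the points at 0 groups include KRT5 at 7.

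Genes whose products work with keratins were called by the same rule, and their counts stand beside the shares over all genes, 10.0%, 9.57%, 5.36% and 5.79% for H3K27me3 and 39.9%, 43.6%, 41.6% and 44.5% for H3K4me3 in TKO, WT, D1240A and F1295A. These lists are short, and none was tested against that background. None of the 34 keratin-associated protein genes inside the chromosome 17 cluster, whose products cross-link hair keratins, carried either mark in any group. Of 60 elsewhere, 12, 7, 6 and 7 carried H3K27me3 in TKO, WT, D1240A and F1295A, and none carried H3K4me3. KRTAP5-2, KRTAP5-3, KRTAP5-4, KRTAP5-5, KRTAP5-6 and KRTAP10-12 carried it in all 4 groups, while KRTAP10-2, KRTAP10-3, KRTAP10-6, KRTAP10-7 and KRTAP10-11 carried it in TKO alone. Among 16 other intermediate filament genes, H3K4me3 marked 4 in TKO and 5 in each other group: VIM, the vimentin of mesenchymal and blood cells, and BFSP1, LMNB1 and LMNB2 in all, with LMNA added in WT, D1240A and F1295A. H3K27me3 marked 5, 4, 3 and 4 of the 16. DES and NEFH followed the pattern of KRT84, marked in all but D1240A. NES, nestin, was marked in TKO and D1240A only.

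Of 22 desmosome and cornified layer genes, H3K27me3 marked 4, 5, 3 and 4 and H3K4me3 marked 4, 5, 4 and 6 in TKO, WT, D1240A and F1295A. PKP2, PLEC and DST, which anchor filaments and are also used outside epithelia, carried H3K4me3 in all 4 groups. LORICRIN, a cornified envelope protein, carried H3K27me3 in TKO and WT, as KRT2 and KRT9 did. Of 21 epithelial transcription factors, H3K27me3 marked 8, 7, 4 and 3 and H3K4me3 marked 1, 2, 2 and 2. HOXC13, FOXN1 and DLX3, factors of the hair follicle, carried H3K27me3 in all 4 groups, whereas OVOL1 and ELF3 carried it in TKO and WT. LEF1, of the same list, carried H3K27me3 in WT and H3K4me3 in all 4 groups, and MSX2 carried neither mark in any group. The HOX genes, another clustered family, were marked by H3K27me3 at 13, 13, 12 and 13 of 39 and by H3K4me3 at 5, 6, 5 and 8. Keratin calls numbered 20, 20, 10 and 13 of 54 beside these, and the difference between the families was not tested.

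Around the clusters, coding neighbours carried H3K4me3 at shares near the 39.9% to 44.5% of all genes. In or within 250 kb of the chromosome 12 cluster, H3K4me3 marked 5, 7, 7 and 7 of 14 other coding genes and H3K27me3 marked 2, 2, 0 and 0. On chromosome 17 H3K4me3 marked 5, 6, 6 and 8 of 15 others, apart from the keratin-associated protein genes, and H3K27me3 marked 3, 5, 2 and 2. IGFBP4 and CCR7, below the chromosome 17 cluster, carried H3K27me3 in all 4 groups.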

How the data were processed

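Per the labels' protocols, chromatin fixed in 0.8% formaldehyde was immunoprecipitated and tagmented. The submitters' processing notes name SEACR 1.3 (a peak caller), Bowtie2 2.4.5, Trimmomatic 0.36, FastQC 0.11.4 and GRCh38. For peak calling, its control, mode and cutoff, and for the way H3K27me3 replicates were combined, nothing is given in the sources used here. Each deposited peak has a total signal, that is coverage, from the authors' caller, with no scaling stated. Signal served to rank, filter and describe peaks within a list. Read totals are not part of the lists, so depth and the precision it gives are unknown, and fewer or weaker peaks can come from shallower sequencing.

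Peaks were joined to RefSeq GRCh38.p14 gene records (RefSeq table without strand) with Python 3.11.15, numpy 2.4.6 and pandas 2.3.3, and the overlap functions were tested on simulated data. A gene was marked where at least 1 base of a peak lay within 1 kb of either record end. Clusters run from the first to the last keratin record. All 54 keratins were named by rule, with values for each marked or differing gene. From other lists, members that differed between groups or were few were named, some after their values were seen. The members and lists were chosen with earlier results of these data known. Groups were compared as counts and covered bases, with no test. Alternatives were other windows, start sites only, whole records, stronger or equally many peaks, wider peaks and joined peaks.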

Additional observations from a re-analysis of the deposited data

How the results depend on the processing

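For H3K27me3, 23 of 28 recomputed counts, 28 of 48 counts between groups and 18 of 32 covered shares stayed the same. A count was the same within 1.5 times, and a share within its exact 95% binomial interval over bases. That interval treats bases of the same peak as independent and is very narrow, so the rules for counts and shares are not alike. Some values could not move. The 2083 peaks are the whole F1295A list, and no H3K27me3 peak in the clusters was narrower than 3.68 kb, so a least width of 1 kb removed none there. Values for H3K4me3 and for both marks were 0 throughout, which settings that only remove peaks could not change. Windows of 2.5 kb and, for H3K4me3, whole records also gave 0. They could add no call either, because the nearest H3K4me3 peak stood at least 48.4 kb outside a cluster. Using only RefSeq starts (34 genes have one), H3K27me3 marked 10 keratins in TKO and 10 in WT, and 3 in D1240A and 6 in F1295A, and with equal peak numbers 13 in TKO. Cover of the chromosome 12 cluster was 24.37% in TKO and 22.44% in WT, and 9.62% in D1240A and 21.05% in F1295A with the stronger 50% of peaks. It was 23.09% in TKO and 23.23% in WT with equal peak numbers, and 29.9%, 30.36% and 25.84% in TKO, WT and F1295A with peaks within 5 kb joined. Cover of the chromosome 17 cluster was 7.644% in TKO, 6.267% in WT and 1.622% in F1295A with the stronger 50%, and 1.62% in TKO and 7.107% in WT with equal peak numbers.

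With no peak allowed within 10 kb, keratins marked in one group and not another numbered 1 for TKO over WT, 4 for TKO over F1295A, 0 for WT over TKO, 4 for WT over F1295A, 0 for D1240A over WT and over F1295A, and 2 for F1295A over D1240A. With equal peak numbers they numbered 4 for TKO over D1240A, 2 for TKO over F1295A, 5 for WT over TKO, 7 for WT over D1240A, 4 for WT over F1295A, 1 for D1240A over TKO, 2 for F1295A over TKO and 1 for F1295A over WT. A window of 2.5 kb left 0 for D1240A over WT and over F1295A. The stronger 50% of peaks left 0 for D1240A over WT, 2 for D1240A over F1295A and 1 for F1295A over WT. The cause of these moves was not tested, beyond the fewer genes or peaks that each setting keeps by construction.

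No paired analysis was possible because both H3K27me3 replicates of a group stand in 1 list and H3K4me3 has 1 sample per group; leaving out a replicate was not run for the same reason. Unknown depth limits every absence of a peak.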
